A study of Homo sapiens with 6 samples.

Results

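The genes described here belong to the cytostatic program of TGF-β, the set of cell cycle genes through which this cytokine slows division in epithelial cells. They were 10 genes chosen by name, namely the INK4 inhibitors CDKN2A, CDKN2B and CDKN2C, the antisense RNA CDKN2B-AS1, the CIP/KIP inhibitors CDKN1A, CDKN1B and CDKN1C, and the growth genes MYC, CDC25A and CCND1. Each was read from its entry on a primary chromosome, and together they were 10 of 41497 named entries in the gene tables. RNA was sequenced from HK-2 cells, labeled WT (wild type), after 24 hours without treatment (control, 3 libraries) or with TGF-β1 (3 libraries). The labels give serum-containing medium, whereas the methods describe TGF-β treatment in serum-free medium, and whether the control cells were also without serum is not stated. The dose of TGF-β1 for these libraries is not in the labels. The labels do not say whether the 3 libraries of a group came from separate cultures, so p-values measure only the spread between these libraries.

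HK-2 is an immortalized line of human proximal tubular epithelial cells. It was made with the papillomavirus genes E6 and E7, of which E7 is known to inactivate RB, the protein that CDK inhibitors keep active. Both groups share this. As background, INK4 proteins bind CDK4 and CDK6 and keep cyclin D from activating them, while CIP/KIP proteins bind cyclin-CDK complexes and block mainly CDK2. In many epithelial cells, SMAD complexes activated by TGF-β raise CDKN2B and CDKN1A and repress MYC, and loss of CDC25A removes a phosphatase that CDKs need.

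Total counts ranged from 21.9 to 26.9 megacounts per library. TGF-β1 replicate 1 stood apart from the other TGF-β1 libraries, with a chi-square per degree of freedom of 17.9 and 16.6 against them, where the other pair differed by 4.30 and pairs of control libraries by 4.29 to 5.83. Values without it are given beside those results of the 10 genes, their planned ratios and the list counts that it moves most. Of 10 tubular epithelial markers, 8 passed the count filter, with KRT8 and KRT18 high and LRP2 at 0 in all libraries, and their summed level was 1189 to 1243 CPM (counts scaled to library size) in control and 1746 to 1880 after TGF-β1. KRT19 and EPCAM fell by 1.34 and 1.25 on the log2 scale, while CDH2 and AQP1 rose by 1.05 and 2.10. Markers of other cell types summed to 94.3 to 104 CPM in control and 66.6 to 90.3 after TGF-β1, mostly CD68, which is not restricted to macrophages. PTPRC, CD3E, NPHS1, UMOD and AQP2 were each under 1 CPM in both groups. PDGFRB rose by 3.38 on the log2 scale to 5.79 ± 0.429 CPM (SD, n = 3), and CDH5 had 16 to 29 counts in control libraries and 0 in each TGF-β1 library. The part of these markers in the results below was not tested. In bulk RNA, fewer cells of a type and less RNA per cell cannot be told apart.

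All 10 genes had enough counts to be tested, and 6 of them were called higher after TGF-β1, 0 lower and 4 not called. A call was an adjusted p under 0.05 in the edgeR quasi-likelihood test over 14860 genes, with Benjamini-Hochberg adjustment. The background was high, since 44.3% of all genes tested were called, 22.2% higher and 22.1% lower. The median log2 fold change of the 10 genes was 0.22, beside 0.0063 for all genes tested. In 7 of the 10 genes the TMM-scaled CPM of the groups did not overlap, which held for 55.6% of all genes tested. In each of the 7 the TGF-β1 libraries were the higher ones, which held for 27.9%. This depended on the scaling. In TPM, which corrects for gene length and uses no TMM factors, CDKN1A, CDC25A and CDKN2C overlapped between groups. CDKN1B did not overlap in TPM and was lower after TGF-β1. CDKN2B alone among the 10 genes rose at least 2-fold, as 3.68% of all genes tested did, and 0 of them fell that far, as 5.38% did. With DESeq2, 4 of the 10 genes were called, without CDKN1A and CDC25A. Scaling by total counts only, without TMM factors, moved the log2 fold change of all genes by a median of -0.11 and gave 2134 genes higher and 4590 lower in place of 3294 and 3288, with 5 of the 10 genes called.

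**Figure D1:**
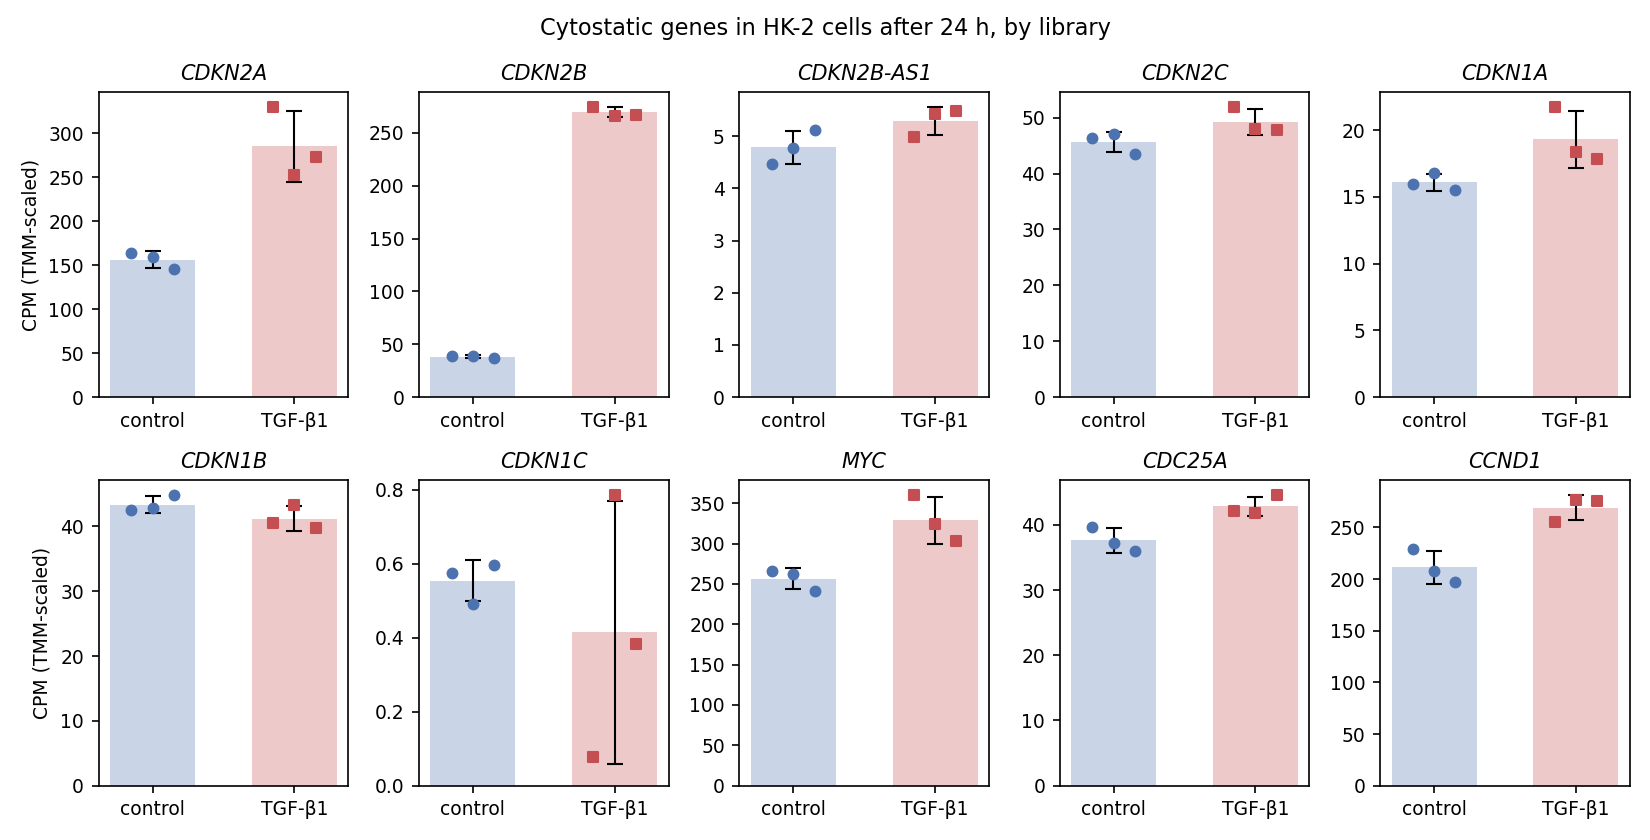
CPM (TMM-scaled) of the 10 cytostatic genes in 3 control (blue circles) and 3 TGF-β1 (red squares) libraries, with bars for the mean and lines for the SD. CDKN2B stands at 37.3 to 39.1 CPM in control and 266 to 275 after TGF-β1, while CDKN1B overlaps between groups.

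The INK4 gene CDKN2B (p15INK4b) and its neighbor CDKN2A lie next to each other at 9p21. CDKN2B is at chr9:22002903-22009313 on the minus strand (hg38), and CDKN2A at chr9:21967752-21995324 on the same strand. CDKN2A has 2 start sites in RefSeq, the distal one for p14ARF, which restrains MDM2, and the proximal one for p16INK4a, and the gene count joins both. CDKN1A (p21) is at chr6:36676463-36687332 on the plus strand. Promoter sequence is shown for these 3 inhibitors, because they are the CDK inhibitors called in this comparison and the data allow their start regions to be set side by side. The sequences are from RefSeq on GRCh38.p14, written 5′ to 3′ along the gene strand. Capitals mark AGAC or its complement GTCT, the 4-letter core of the SMAD box. CDKN2B is shown at chr9:22009314-22009555, the distal start of CDKN2A at chr9:21995325-21995574, and CDKN1A at chr6:36678464-36678713. For CDKN2B, the 8 bases nearest the start are left out because they fall in the listed exon, and for CDKN1A the window lies inside the listed span of the gene, before the start that RefSeq gives.
CDKN2B: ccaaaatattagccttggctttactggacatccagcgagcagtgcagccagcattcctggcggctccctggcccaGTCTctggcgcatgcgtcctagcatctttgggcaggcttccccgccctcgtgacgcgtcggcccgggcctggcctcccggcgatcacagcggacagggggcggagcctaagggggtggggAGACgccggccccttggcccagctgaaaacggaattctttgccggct
CDKN2A: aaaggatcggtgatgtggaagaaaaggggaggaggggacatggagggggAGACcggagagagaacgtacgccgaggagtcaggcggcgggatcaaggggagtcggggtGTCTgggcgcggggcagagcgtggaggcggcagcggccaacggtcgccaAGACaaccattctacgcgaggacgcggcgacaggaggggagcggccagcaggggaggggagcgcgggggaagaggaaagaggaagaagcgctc
CDKN1A: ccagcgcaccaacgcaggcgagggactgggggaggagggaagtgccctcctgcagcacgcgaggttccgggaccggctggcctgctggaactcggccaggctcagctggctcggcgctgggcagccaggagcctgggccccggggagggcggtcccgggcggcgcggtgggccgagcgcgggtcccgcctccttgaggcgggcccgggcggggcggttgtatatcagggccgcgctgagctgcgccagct
The core occurred at 2 places upstream of CDKN2B, at 3 upstream of the distal start of CDKN2A and at 0 upstream of CDKN1A. GGGCGG, the SP1 box, occurred at 2, 0 and 4 places. The window before the proximal start of CDKN2A, not shown, held 1 match of each. Over 35116 RefSeq promoter windows of 250 bases, 77.5% held AGAC and 42.6% held GGGCGG on either strand. A RefSeq promoter was matched for 7 of the 10 genes. Of the E2F motifs, TTTGGCG occurred at 1 place upstream of CDC25A (1.59% of all windows hold it) and TTTCGCG in none of the windows of these genes (1.10%). CACGTG, the E-box, occurred at 1 place in 2 of the 3 windows of CDKN2C (6.34%), and the forkhead motif GTAAACA in none of the windows (2.98%). These are matches of letters, and no binding was measured.

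CDKN2B had the largest change of the 10 genes. It stood at 39.1, 39.0 and 37.3 CPM in control and at 275, 266 and 267 CPM after TGF-β1. The lowest TGF-β1 library was far above the highest control library, and TGF-β1 replicate 1 did not stand out. The mean went from 38.5 ± 0.977 to 269 ± 4.79 CPM (SD, n = 3), a rise of 2.81 ± 0.05 on the log2 scale (edgeR adjusted p = 9.1e-11, 95% interval 2.69 to 2.93), which is 7.0-fold. Among 14860 genes tested, it ranked 92 from the largest rise and 5 by p. Without TGF-β1 replicate 1 the log2 fold change was 2.78.

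CDKN2A rose less, and unevenly between libraries. Its CPM was 164, 159 and 146 in control against 330, 252 and 273 after TGF-β1. The groups did not overlap, and TGF-β1 replicate 1 was the highest. The mean went from 156 ± 9.47 to 285 ± 40.5 CPM (SD, n = 3), a rise of 0.87 ± 0.10 on the log2 scale (edgeR adjusted p = 9.9e-05), or 1.82-fold. Without TGF-β1 replicate 1 it was 0.73. The ratio of CDKN2B to CDKN2A was taken within each library from TPM, which corrects for gene length. It was 0.276, 0.285 and 0.297 in control against 0.967, 1.23 and 1.14 after TGF-β1. The ratio rose 3.86-fold, without overlap between groups (exact two-sided permutation test, p = 0.1, the smallest p that 3 libraries against 3 allow), a log2 difference of 1.95, which was 2.05 without TGF-β1 replicate 1.

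CDKN2B-AS1 (ANRIL) is a long noncoding RNA on the plus strand at chr9:21994791-22121097, known to recruit Polycomb complexes to the INK4 genes. It was low, with 101, 117 and 120 counts in control and 130, 131 and 115 after TGF-β1. In CPM these were 4.48, 4.78 and 5.11 against 4.99, 5.42 and 5.49, and the groups overlapped. The log2 fold change was 0.14 ± 0.12 (95% interval -0.13 to 0.42, edgeR adjusted p = 0.368), so a 7.0-fold change like that of CDKN2B lay outside its interval. CDKN2B lies within the span of CDKN2B-AS1 but shares 0 exonic bases with it. CDKN2A shares 341 exonic bases with it, at chr9:21994821-21995161 on the opposite strand. Whether counting used the strand is not given in the sources used here, so reads from those bases cannot be assigned to one of the pair.

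CDKN2C (p18INK4c, chr1:50968706-50974634, plus strand) is an INK4 gene outside 9p21. Its CPM was 46.3, 47.0 and 43.6 in control against 52.0, 48.0 and 47.7 after TGF-β1. The groups did not overlap, but the gap between them was small beside the spread, and the log2 fold change of 0.11 ± 0.06 was not called (edgeR adjusted p = 0.174, 95% interval -0.03 to 0.25).

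Genes around CDKN2B were read in the same fit. Within 1000 kb of its start lay 32 named entries, of which 16 had 0 reads and 11 were tested. Of these, 7 were called higher, 1 lower and 3 not called, where 22.2% of all genes tested were called higher. This window was set by the position of CDKN2B, and the 7 include CDKN2B and CDKN2A themselves. MTAP, which codes for methylthioadenosine phosphorylase of methionine salvage, had 87.8, 91.6 and 90.2 CPM in control and 171, 189 and 185 after TGF-β1, a rise of 1.02 ± 0.06 on the log2 scale (edgeR adjusted p = 1.2e-07). MIR31HG, the noncoding host gene of miR-31, rose from 0.826 ± 0.167 to 5.02 ± 0.372 CPM (SD, n = 3), or 2.60 ± 0.19 on the log2 scale. IFNE, an epithelial type I interferon gene, rose by 2.22 ± 0.30 on the log2 scale and lies inside the span of MIR31HG on the same strand, so their reads may be shared. CDKN2A-DT rose by 1.30 ± 0.36 (edgeR adjusted p = 0.0124) from 0.326 CPM, and LINC01239 by 0.81 ± 0.17. KLHL9, which codes for an adaptor of a CUL3 ubiquitin ligase, fell by 0.28 on the log2 scale. HACD4 and DMRTA1 had log2 fold changes of -0.12 and -0.06 and were not called. The 3 uncalled genes lay on both sides of CDKN2B.

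**Figure D2:**
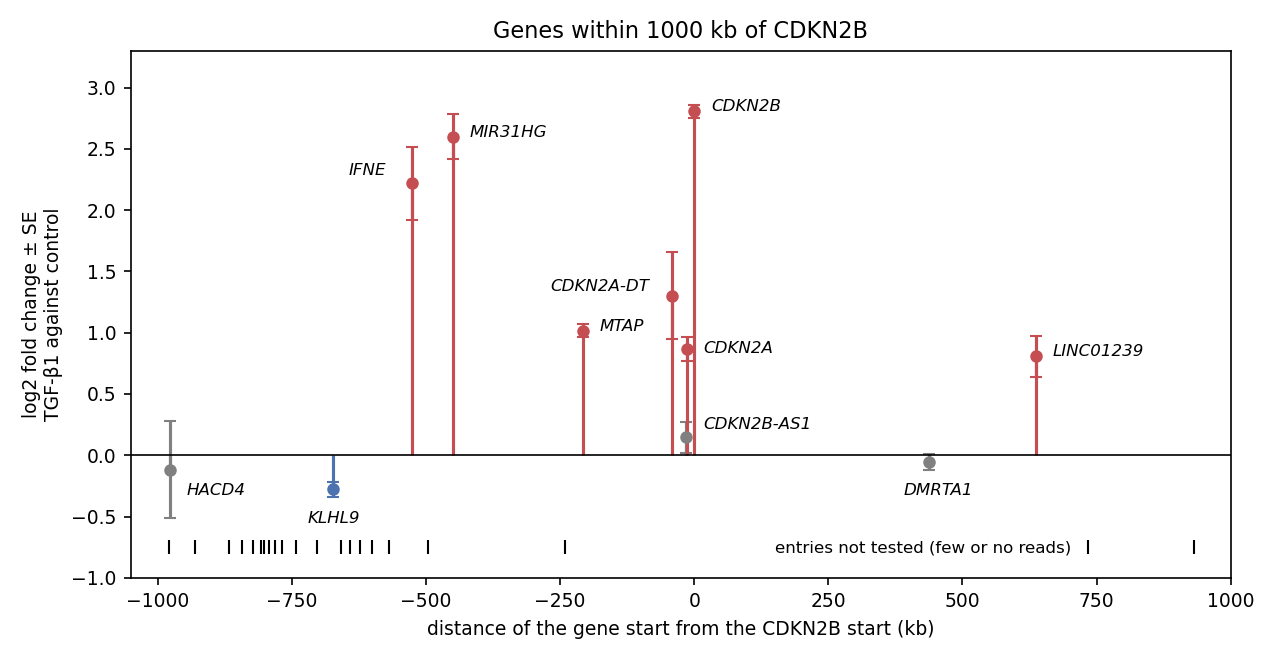
Log2 fold change ± SE (TGF-β1 against control) of the 11 tested genes within 1000 kb of the CDKN2B start, by distance in kb, with red for called higher, blue for called lower and gray for not called, and ticks for entries not tested. CDKN2B (2.81), MIR31HG (2.60) and IFNE (2.22) are the highest points, while CDKN2B-AS1 lies at 0.14.

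Of the CIP/KIP genes, CDKN1A rose slightly and CDKN1B and CDKN1C were not called. CDKN1A (p21), a target of SMADs, had 16.0, 16.8 and 15.6 CPM in control and 21.8, 18.4 and 17.8 after TGF-β1. The groups did not overlap, and TGF-β1 replicate 1 was the highest. The mean went from 16.1 ± 0.632 to 19.3 ± 2.15 CPM (SD, n = 3), a rise of 0.26 ± 0.09 on the log2 scale (edgeR adjusted p = 0.0311). The call was lost with DESeq2 (log2 fold change 0.26, adjusted p = 0.0773) and without TGF-β1 replicate 1 (0.16, edgeR adjusted p = 0.103). It was also lost without control replicate 1, 2 or 3 (0.26, 0.29 and 0.24) and with scaling by total counts only (0.16).

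CDKN1B (p27, chr12:12717368-12722369, plus strand) acts on cyclin E-CDK2 and is regulated largely at the level of protein turnover. Its CPM was 42.4, 42.8 and 44.8 in control against 40.5, 43.3 and 39.7 after TGF-β1, and the groups overlapped. In TPM they did not, at 57.6, 59.0 and 63.1 against 49.9, 56.3 and 51.0. The log2 fold change was -0.07 ± 0.06 (edgeR adjusted p = 0.347), and its 95% interval ran from 0.866-fold to 1.04-fold. With scaling by total counts only it was called lower, at -0.18 (edgeR adjusted p = 0.0324).

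CDKN1C (p57, chr11:2883218-2885775, minus strand), an imprinted gene, was close to absent. The primary entry had 13, 12 and 14 counts in control and 2, 19 and 8 after TGF-β1. A second entry on an alternate contig had 2, 9 and 5 counts in control and 24, 2 and 3 after TGF-β1, and the sums were 15, 21 and 19 against 26, 21 and 11. The low value of TGF-β1 replicate 1 in the primary entry thus went with its high value in the copy. The log2 fold change of the primary entry was -0.43 ± 0.57 (edgeR adjusted p = 0.575, 95% interval -1.70 to 0.85). It was 0.055 with the entries summed and 0.086 without TGF-β1 replicate 1, so its sign was not settled at this depth.

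The ratio of CDKN1A to CDKN1B in TPM was 0.265 ± 0.0165 in control and 0.335 ± 0.0424 after TGF-β1 (SD, n = 3, exact two-sided permutation test, p = 0.1), with no overlap between groups. TGF-β1 replicate 1 had the highest value, and without it the log2 difference of the ratio was 0.23 in place of 0.33. The ratio of CDKN1A to CCND1 was 0.0958 ± 0.00727 against 0.0902 ± 0.0144 and overlapped (exact permutation test, p = 0.7), with a log2 difference of -0.09 that was -0.22 without TGF-β1 replicate 1. These ratios and those of CDKN2B to CDKN2A and of CCND1 to all D-type cyclins were 4 planned comparisons, of which 3 reached the smallest possible p of 0.1 in the exact permutation test (0.133 after Benjamini-Hochberg adjustment over the 4).

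The growth genes MYC, CDC25A and CCND1 were all called higher, and none fell. MYC, on chromosome 8, codes for a transcription factor that drives growth and represses CDKN2B and CDKN1A. Its CPM was 266, 262 and 242 in control against 360, 325 and 303 after TGF-β1. The groups did not overlap. The mean went from 257 ± 13.2 to 329 ± 29.1 CPM (SD, n = 3), a rise of 0.36 ± 0.07 on the log2 scale (edgeR adjusted p = 0.00181, 95% interval 0.20 to 0.52), or 1.28-fold. Without TGF-β1 replicate 1 it was 0.28, and with scaling by total counts only it was 0.25 (edgeR adjusted p = 0.0135). All values are from a single time, 24 hours, so a fall of MYC at an earlier time could not be seen.

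CCND1 (cyclin D1, chr11:69641156-69654474, plus strand), the partner of CDK4 and CDK6, had 229, 208 and 197 CPM in control and 255, 277 and 275 after TGF-β1. The lowest TGF-β1 library lay above the highest control library. It rose by 0.35 ± 0.07 on the log2 scale (edgeR adjusted p = 0.00132), or 1.27-fold. Its share of the TPM of the D-type cyclins CCND1, CCND2 and CCND3 was 68.3%, 67.8% and 67.4% in control against 68.9%, 72.8% and 73.0% after TGF-β1 (exact two-sided permutation test, p = 0.1). The share was higher by 3.75 percentage points, or by 5.08 without TGF-β1 replicate 1, the lowest library of its group. CCND2 fell by 0.49 on the log2 scale.

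CDC25A (chr3:48157146-48188417, minus strand), the phosphatase that activates CDK2, had 39.7, 37.2 and 36.1 CPM in control and 42.1, 41.9 and 44.6 after TGF-β1. The groups did not overlap. The rise was 0.19 ± 0.06 on the log2 scale (edgeR adjusted p = 0.0318). It was not called with DESeq2 (0.18, adjusted p = 0.0716) or with scaling by total counts only (0.079, edgeR adjusted p = 0.320). Nor was it called without control replicate 2 or 3 (0.18 and 0.16) or without TGF-β1 replicate 2 or 3 (0.20 and 0.15).

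**Figure D3:**
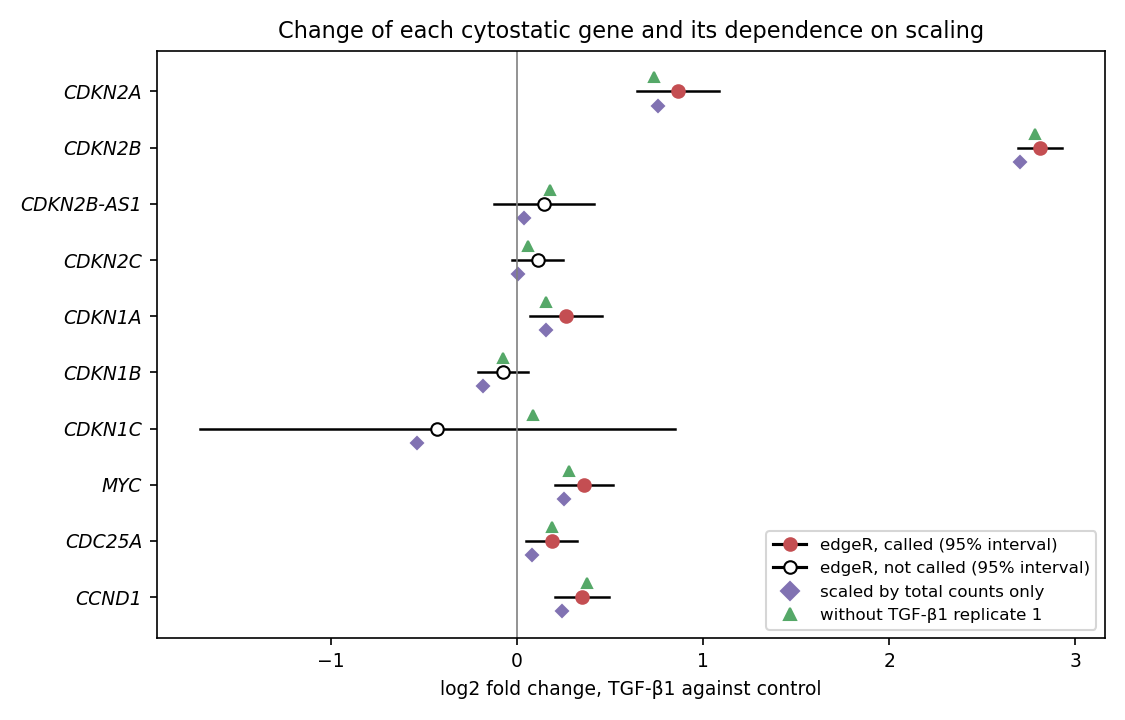
Log2 fold change (TGF-β1 against control) of the 10 genes with 95% intervals, filled where called, beside the value with scaling by total counts only (diamonds) and without TGF-β1 replicate 1 (triangles). CDKN2B stays between 2.70 and 2.81, whereas CDKN1A falls to 0.16 and the interval of CDKN1C runs from -1.70 to 0.85.

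The order of the genes by level, in TPM, changed mainly through CDKN2B. In control the order was MYC (189 ± 6.59 TPM, SD, n = 3), CCND1 (166 ± 9.71), CDKN2A (112 ± 4.83), CDKN2C (69.4 ± 1.92) and CDKN1B (59.9 ± 2.85), and the ranges of neighbors in it did not overlap. CDC25A (32.6 ± 1.08) and CDKN2B (32.1 ± 0.347) followed with overlapping ranges, then CDKN1A (15.8 ± 0.559), CDKN2B-AS1 (3.79 ± 0.322) and CDKN1C (0.951 ± 0.103). After TGF-β1, CDKN2B stood at 207 ± 2.31 TPM, overlapping with MYC (223 ± 14.7) and above the range of CCND1 (195 ± 14.2). CDKN2A was at 188 ± 21.2 TPM and overlapped with CCND1. CDKN2C (68.9 ± 1.5), CDKN1B (52.4 ± 3.42), CDC25A (34.2 ± 1.69), CDKN1A (17.4 ± 1.46), CDKN2B-AS1 (3.86 ± 0.297) and CDKN1C (0.665 ± 0.578) kept their order below these.

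Summed levels of inhibitors were set against their kinases in ratios chosen after the values were seen, given with the exact permutation p. The INK4 genes CDKN2A, CDKN2B, CDKN2C and CDKN2D had 0.543, 0.520 and 0.521 times the TPM of CDK4 plus CDK6 in control and 1.25, 1.03 and 1.05 times after TGF-β1, a 2.10-fold rise (p = 0.1, exact permutation test). The count of CDKN2A in this sum joins p16INK4a and p14ARF, so the sum is not of INK4 transcripts alone. CDKN2B made up 13.5% ± 0.273 of the TPM of the INK4 genes in control and 42.6% ± 2.29 after TGF-β1 (SD, n = 3). The CIP/KIP genes had 0.330 ± 0.00673 times the TPM of CDK2 in control and 0.352 ± 0.00780 times after TGF-β1 (SD, n = 3, exact permutation test, p = 0.1). In this ratio CDK2 went from 232 ± 4.07 to 200 ± 7.90 TPM. The edgeR test used TMM-scaled counts, in which CDK2 went from 166 to 156 CPM and was not called (adjusted p = 0.131). CDKN1B went from 59.9 to 52.4 TPM and CDKN1A from 15.8 to 17.4, so the higher ratio does not mean more CIP/KIP transcript. Transcript ratios do not give the share of kinase that is bound by an inhibitor.

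**Figure D4:**
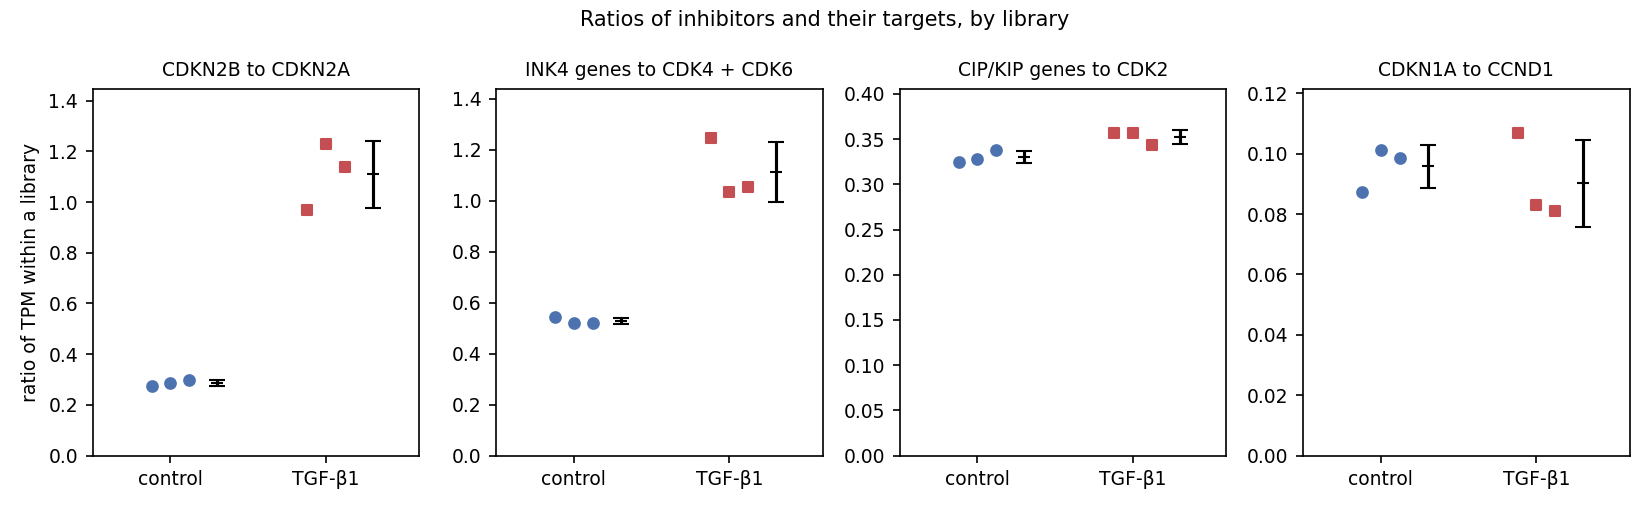
Ratios of TPM within each of 3 control and 3 TGF-β1 libraries, with mean and SD at the right of each group, on axes that start at 0. The ratio of CDKN2B to CDKN2A goes from a mean of 0.286 to 1.11 and that of INK4 genes to CDK4 plus CDK6 from 0.528 to 1.11, while CDKN1A to CCND1 overlaps.

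G1 cyclins and kinases were read as a list of 14 genes. Beside cyclins and kinases that the inhibitors act on, it held CCNH, CDK7, MNAT1, CDC25B, CDC25C, CDKN2D and CDKN3. Of 14 tested, 2 were called higher and 2 lower, with a median log2 fold change of 0.07. That is 28.6% called, below the 44.3% of all genes tested. The called genes, CDK6, CCNE1, CDK4 and CCND2, were all among the cyclins and kinases that the inhibitors act on. The low share of the list thus came with its other members, which were not called. CDK6, an INK4 target, rose by 0.69 ± 0.09 on the log2 scale, from 374 ± 4.39 to 605 ± 83.4 CPM (SD, n = 3, edgeR adjusted p = 0.00015). CDK4, the other INK4 target, fell by 0.16 (edgeR adjusted p = 0.0380). Without TGF-β1 replicate 1, 7 of the list were called. CDK7 had a log2 fold change of 1.73 that came from 472 counts in TGF-β1 replicate 2 against 24 to 103 in the other libraries. It has a second entry and was not called, and it is named here because of these values.

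Among 17 genes of the RB and E2F family, through which CDK activity reaches transcription, 16 were tested, 4 were called higher and 2 lower, with a median log2 fold change of 0.09. The called share was 37.5%, beside 44.3% of all genes tested. RB1 had a log2 fold change of 0.02 and was not called. The repressive factors E2F7 and E2F8 moved apart, with E2F7 higher by 0.37 ± 0.06 and E2F8 lower by 0.49 ± 0.07 on the log2 scale. Without TGF-β1 replicate 1, 9 of this list were called in place of 6. A readout of 21 genes of replication and mitosis had 2 called higher, 5 lower and 14 not called (33.3% called), with a median of -0.01. RRM2, a subunit of ribonucleotide reductase, rose by 0.29 and CCNB1 by 0.16 on the log2 scale. The 5 called lower were MKI67 (-0.29) and 4 genes of the replicative helicase. These were MCM2 (-0.25), MCM3 (-0.23), MCM5 (-0.28) and MCM6 (-0.28), while MCM4 and MCM7 were not called. MKI67 was at 763, 759 and 792 CPM in control and at 526, 689 and 679 after TGF-β1. The size of its fall thus leaned on TGF-β1 replicate 1, the lowest library. Without control replicate 1 or control replicate 2, 4 of these 21 genes were called, and 10 without TGF-β1 replicate 1, where 7 were called with all libraries. The number of cells or of dividing cells was not measured.

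The MYC network of 12 genes had 11 tested, 4 higher and 2 lower, with a median log2 fold change of 0.03. Its called share was 54.5%, beside 44.3% of all genes tested. MAX, the partner of MYC, rose by 0.26, MLXIP rose by 1.09 and MXI1, an antagonist of MYC, fell by 0.46 on the log2 scale. Other antagonists in the list were mixed. MXD1 rose by 0.34, MXD3 fell by 0.33, and MXD4 and MNT were not called. MLXIP has 2 entries, of which the primary one is given. With scaling by total counts only, 3 genes of the network were called. Among 14 genes that MYC is known to drive, chiefly of ribosome synthesis, 8 were called higher and 0 lower, where 22.2% of all genes tested were called higher. Their median log2 fold change was 0.30. SRM, spermidine synthase, rose by 0.74 ± 0.11 and NOP16, a nucleolar protein gene, by 0.56 ± 0.09 on the log2 scale. FBL, also in this list and named because of its values, had 1392 counts in TGF-β1 replicate 2 against 97 to 170 in the other libraries. Like CDK7, it has a second entry, and it was not called.

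Of the SMADs and their cofactors at cytostatic genes, 11 were tested, with 2 higher and 3 lower and a median log2 fold change of -0.05. Called genes made up 45.5% of this list, near the 44.3% of all genes tested. SMAD3, which carries the TGF-β signal to these promoters, had 414, 416 and 414 CPM in control and 180, 202 and 194 after TGF-β1. It fell by 1.11 ± 0.06 on the log2 scale (edgeR adjusted p = 7.0e-08). FOXO1, a partner of SMADs at CDKN2B and CDKN1A, rose by 1.56 ± 0.19 from 1.22 to 3.59 CPM. FOXO3, of the same family and at a higher level, fell by 0.53 ± 0.09 from 94.8 to 65.5 CPM (edgeR adjusted p = 0.00096). FOXO4, with a log2 fold change of 0.04, was not called. With scaling by total counts only, 8 of this list were called.

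Genes that govern turnover of p27 and of other cell cycle proteins had 10 tested, 3 higher and 1 lower, with a median log2 fold change of 0.09. This is 40% called, where 44.3% of all genes tested were. CKS1B, a cofactor of SKP2 in p27 degradation, rose by 0.43, and FBXO31, an F-box protein that targets cyclin D1, rose by 0.28 on the log2 scale. SKP2 itself had a log2 fold change of -0.14 and was not called, and the 1 called lower was CKS2 (-0.16). Without any 1 of control replicates 1, 2 and 3 or of TGF-β1 replicate 3, 2 of these 10 genes were called, and without TGF-β1 replicate 1, 5. Among 10 Polycomb and demethylase genes, which silence or open the INK4 locus, 9 were tested, with 1 higher and 2 lower (33.3% called) and a median of 0.07. KDM6B, a demethylase of the Polycomb mark on histone H3, rose from 26.3 ± 2.18 to 99.5 ± 4.02 CPM (SD, n = 3), or 1.92 ± 0.07 on the log2 scale (edgeR adjusted p = 7.1e-09). KDM2B, a subunit of a Polycomb complex, fell by 0.58 ± 0.06. With scaling by total counts only, 5 of these genes were called, and without TGF-β1 replicate 1, 6. Of 6 named neighbors on 9p21, 3 were higher and 1 lower (66.7% called), with a median of 0.53. The 3 were MTAP, MIR31HG and IFNE, already counted in the window around CDKN2B and so not a separate result. The 1 called lower was ELAVL2, by 0.53 on the log2 scale, which lies outside that window.

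**Figure D5:**
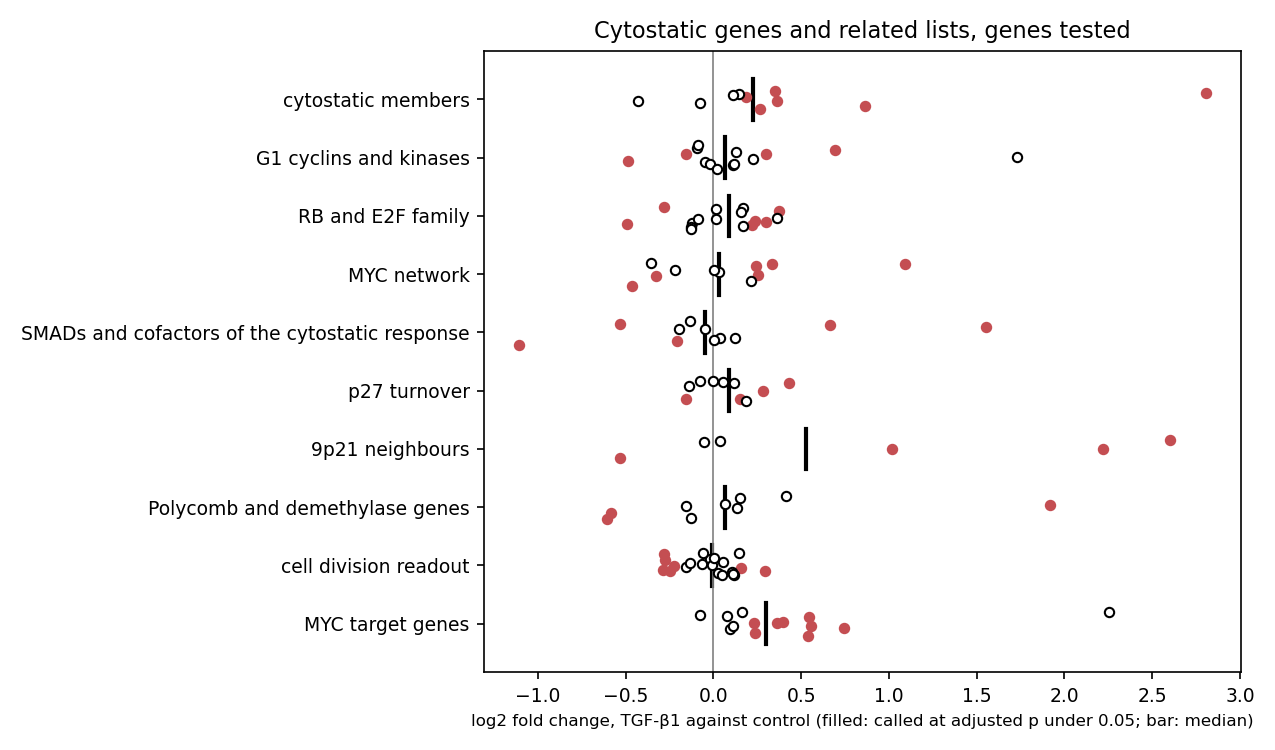
Log2 fold change (TGF-β1 against control) of each tested gene in the cytostatic set and 9 related lists, filled where the edgeR adjusted p was under 0.05, with a bar at each list's median. The MYC target list has its median at 0.30, while the cell division readout is centered at -0.01.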

How the data were processed

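RNA from HK-2 cells was captured on oligo(dT) beads and sequenced paired-end in 6 libraries. Adapters and reads of low quality were removed by the authors. The submitters' processing notes name CASAVA, featureCounts 2.0.1, DESeq2 1.16.1 and hg38. The aligner, strandedness and annotation release are not given in the sources used here. The deposited tables hold raw counts per gene with TPM and FPKM computed by the authors. FPKM was not used, and TPM recomputed from counts and lengths differed by at most 3.6e-06.

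In each table, 7 broken records were rejoined, and 598 unnamed loci (0.396% to 0.464% of counts) were left out. Groups were taken from the treatment given in the titles. Genes kept by filterByExpr (minimum count 10) were TMM-scaled and compared with the quasi-likelihood F test of edgeR 4.0.16 in R 4.3.3 (robust, prior count 0.125), with Benjamini-Hochberg adjustment and a threshold of 0.05. CPM used TMM-scaled library sizes, and an SE was the log2 fold change over the square root of F. All 10 genes passed the filter, so a planned exact test for sparse genes was not needed. Ratios of TPM were compared by exact permutation with scipy 1.17.1. The scripts were tested on simulated data.

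The genes and lists were chosen with earlier results of these data known. Named beyond the 10 were genes of the lists that were called with a log2 fold change of at least 1 in size. The 2 called genes with the smallest p in each list and tested genes in the 9p21 window were named too. So were RB1, MAX, CDK2, CDK4, CDK6, MTAP, SMAD3, ELAVL2, MCM4, MCM7 and the called genes of the cell division readout. Genes of the same lists named for comparison were FOXO3, FOXO4, MXD1, MXD3, MXD4, MNT, SKP2, CKS2 and other members of the G1 list. The alternatives were DESeq2 1.42.0, limma-voom (limma 3.58.1), RLE size factors, entries of a name summed, scaling by total counts only, every gene with at least 1 count, a mean of at least 50 counts, the replicate number as a block, and each library left out. Some genes of the lists and 1 list are not reported here.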

Additional observations from a re-analysis of the deposited data

How the results depend on the processing

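Of 139 log2 fold changes of the 10 genes under alternatives, 124 kept their direction and side of the threshold, including every value of CDKN2A, CDKN2B, CDKN2B-AS1, CDKN2C, MYC and CCND1. Of 224 counts of called genes, 211 stayed within 1.5 times. With DESeq2, CDKN1A (log2 fold change 0.26, adjusted p = 0.0773) and CDC25A (0.18, adjusted p = 0.0716) were not called. With scaling by total counts only, CDKN1A (0.16) and CDC25A (0.079) were not called and CDKN1B was called lower (-0.18, edgeR adjusted p = 0.0324), 2134 genes were called higher, and calls numbered 3 in the MYC network, 8 among SMADs and cofactors and 5 among Polycomb and demethylase genes. That scaling omits the TMM factors, which lowers all log2 fold changes by a median of 0.11. With all genes that had a count, 6 markers of other cell types were called, since more of them were tested. The log2 fold change of CDKN1C turned to 0.055 with entries summed and to 0.086 without TGF-β1 replicate 1, and a filter at a mean of 50 counts removed it.

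With each library left out in turn, log2 fold changes ran from 0.16 to 0.31 for CDKN1A, from 0.15 to 0.23 for CDC25A and from -1.34 to 0.086 for CDKN1C. CDKN2A ran from 0.73 to 0.94 and CDKN2B from 2.78 to 2.82. Calls ran from 3 to 7 among G1 cyclins and kinases, from 2 to 5 for p27 turnover, from 4 to 10 in the cell division readout and from 3 to 6 among Polycomb and demethylase genes. The cause of these changes was not tested. The labels give both groups replicate numbers 1 to 3. Deviations of same-numbered libraries from their group means had r = 0.106, -0.0136 and 0.0926 across genes. Differently numbered pairs had r from -0.158 to 0.0857. All were small, but pairs 1 and 3 had the highest values, so a pairing was not settled. With the replicate block 6790 genes, in place of 6582, and 6 of the 10 cytostatic genes were called. It changed the call of none of the 10 (CDKN2B 2.81, CDKN2A 0.86). At this depth CDKN1C, with at most 26 counts a library, had no settled direction.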
